A study of Homo sapiens with 8 samples.

Results

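The transcripts of 10 genes that restrict retroelements and viruses or clear stray nucleic acids were measured in human colorectal cancer cells with lowered UHRF1. The genes were BST2, MOV10, ZC3HAV1, SLFN5, SLFN11, SAMD9L, SAMHD1, TREX1, RNASEH2A and ADAR. They were chosen by name for their known function, with earlier results of these data already known. Each matched a single record among the 60649 gene identifiers of the tables, of which 19942 are protein-coding. The 8 libraries were made from polyA RNA and form 4 groups of 2. HCT116, a colorectal cancer line with both UHRF1 alleles, carried either shScr (a scrambled hairpin, the control) or shUHRF1 (a hairpin against UHRF1). UF1hypo carried the same hairpins. UF1hypo is a single clone of HCT116 (UHRF1+/−-7 in the study's methods) in which exon 4 of 1 UHRF1 allele was removed and the selection cassette was cut out with Cre, so the missing allele and any other property of that clone cannot be told apart. All 8 libraries thus come from HCT116-derived cells that carried a pLKO.1 lentiviral hairpin and were selected with puromycin as pools. The study's methods give a harvest on day 8 or day 12 after infection without saying which applies here. Nothing in the labels says whether replicates 1 and 2 are separate cultures, so p-values measure only the spread between these libraries.

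UHRF1 brings the maintenance methyltransferase DNMT1 to newly replicated DNA and so keeps CpG methylation in place, including at endogenous retroviruses. When such repeats are transcribed, double-stranded RNA and RNA:DNA hybrids can reach the sensors of innate immunity and start an interferon response. The 10 genes act downstream or alongside: tethers and RNA-binding proteins block retroviral or retrotransposon products, SAMHD1 lowers the nucleotide pool for reverse transcription, TREX1 and RNase H2 degrade DNA and RNA:DNA hybrids, and ADAR edits double-stranded RNA so that it is not sensed. Many of them are interferon-stimulated genes themselves.

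Levels are given in TPM, a transcript abundance scaled for transcript length and library size that allows levels of different genes to be compared. Differences are given as log2 differences of TPM + 1 from limma, and a gene was called when the Benjamini-Hochberg adjusted p over all protein-coding genes tested was below 0.05 and the log2 difference was above 1 in size. Adding 1 to each TPM understates the change of genes with low values. Values in the 2 libraries of a group are given as replicate 1 and replicate 2, and shScr libraries are called controls. UHRF1 itself was at 87.5 and 98.4 TPM in the HCT116 controls and at 31.7 and 32.7 TPM after knockdown, and in UF1hypo at 47.3 and 50.6 TPM in the controls and at 34.1 and 21.1 TPM after knockdown. The hairpin groups did not overlap in either line. The log2 difference was -1.50 in HCT116 (SE 0.222, limma adjusted p = 0.0564) and -0.84 in UF1hypo (SE 0.221, adjusted p = 0.0406), so neither passed both thresholds. That of HCT116 passed them with a pseudocount of 0.1 (adjusted p = 0.0472), with the 4 HCT116 libraries alone (0.000104) and after correction for GC content and transcript length (0.00182). That of UF1hypo passed them at -1.02 after the same correction. It was -1.17 without UF1hypo shUHRF1 replicate 1 and -0.51 without replicate 2.

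Depth ran from 5.42 to 7.83 Gb of aligned bases per library, and the 10 most abundant genes held 7.887 to 14.09% of all TPM. Replicates correlated at r = 0.995 or more in 3 groups and at 0.979 in UF1hypo shUHRF1, across genes, where replicate 1 stood apart from replicate 2 along the GC content of transcripts (Spearman's rho = 0.814 across 13781 genes, against -0.508 in UF1hypo shScr). Knockdown differences in UF1hypo are therefore also given without replicate 1. Leaving out a library leaves 1 in its group, so the p-value of such a fit no longer holds the spread of that group. Epithelial keratins and EPCAM were abundant in every library, whereas the intestinal markers CDX1, VIL1 and LGR5 were at 0.496 TPM or less. Summed over 13 leukocyte markers, the level was 2.39 to 3.78 TPM in the other 3 groups and 7.01 to 11.6 in UF1hypo shUHRF1. CD3D made up 5.05 and 2.99 TPM of that, while the pan-leukocyte marker PTPRC was at 0.0728 TPM or less. Of 6 fibroblast markers, COL1A1 alone exceeded 1 TPM, and their sum was 21.2 to 28.9 TPM in the other 3 groups and 38.3 to 66.2 in UF1hypo shUHRF1. The part of other cell types in the results was not tested.

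BST2 showed the widest range of levels among the 10 genes. It encodes tetherin, a membrane protein that holds budding virions at the cell surface. In HCT116, BST2 was at 4.30 and 1.75 TPM in the controls and 5.97 and 7.68 TPM after knockdown. In UF1hypo it was at 56.4 and 55.8 TPM in the controls and at 1153 and 1066 TPM after knockdown. Each of the 4 groups lay above the one before with no overlap. Knockdown raised BST2 by 4.28 on the log2 scale in UF1hypo (SE 0.285, limma adjusted p = 5.2e-05), with mean TPM 19.8 times that of the control. In HCT116 the difference was 1.03 (SE 0.283) with an adjusted p of 0.355, and it moved to 0.55 without HCT116 shScr replicate 2 and to 1.50 without HCT116 shScr replicate 1. The effect in UF1hypo exceeded that in HCT116 by 3.26 (95% interval 2.33 to 4.18, adjusted p = 0.00357). Before any UHRF1 hairpin, BST2 was already 3.90 higher in UF1hypo shScr than in HCT116 shScr (SE 0.283, adjusted p = 0.000145). All 3 calls stood under every alternative and with each library left out, including UF1hypo shUHRF1 replicate 1 (4.23 for knockdown in UF1hypo and 3.20 for the difference of the effects). In bulk libraries, a higher level per cell and a larger share of expressing cells cannot be told apart, here and for each gene that follows.

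The BST2 promoter is shown because BST2 was the only one of the 9 genes with a RefSeq promoter window in which the core of the interferon-stimulated response element was found. The core was searched on both strands as GAAA, 2 bases of any kind and GAAA again, and looser matches were not counted. The window covers 250 bases before to 50 bases after the transcript start, at chr19:17405581-17405880 on the minus strand of GRCh38.p14 (RefSeq), and capitals mark the matches.
BST2: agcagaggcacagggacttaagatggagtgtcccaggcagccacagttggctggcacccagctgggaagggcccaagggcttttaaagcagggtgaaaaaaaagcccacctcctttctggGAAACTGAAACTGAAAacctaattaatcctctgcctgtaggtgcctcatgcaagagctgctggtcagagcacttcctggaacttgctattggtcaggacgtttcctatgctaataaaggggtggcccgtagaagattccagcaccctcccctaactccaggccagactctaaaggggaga
The capitals hold 2 matches that overlap each other, beginning 130 and 124 bases before the start and together 16 bases long. Of all 35116 promoter windows in the table, 3.57% held at least 1 match and 0.259% held 2 or more. The gamma-activated site bound by STAT dimers (TTC and GAA, 3 bases apart) was found at 136 bases before the start, where it shares 3 bases with the capitals, and at 58 bases before the start. A match to that site was also present in the windows of ZC3HAV1 and SLFN11, against 7.66% of all windows. These are matches of letters and not measured binding.

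Among the RNA-binding factors, ZC3HAV1 had its highest levels in UF1hypo shUHRF1 without passing both thresholds, while the groups of MOV10 differed little. ZC3HAV1 encodes ZAP, a zinc finger protein that binds CpG-rich viral RNA and directs its decay. Its level was 22.3 and 22.6 TPM in the controls of HCT116 and 25.3 and 19.1 TPM after knockdown there, against 35.9 and 36.9 TPM in the controls of UF1hypo and 60.3 and 74.6 TPM after knockdown. The 2 HCT116 groups overlapped and the UF1hypo groups lay apart from them and from each other. The knockdown difference in UF1hypo was 0.86 (SE 0.192, limma adjusted p = 0.0208), under the fold threshold. It was 1.02 without UF1hypo shUHRF1 replicate 1 and 0.71 without replicate 2. The difference between lines of the knockdown effect was 0.89 (95% interval 0.27 to 1.51, adjusted p = 0.113). It was 1.04 without UF1hypo shUHRF1 replicate 1 and 0.74 without replicate 2. A processed pseudogene, RP11-383F6.1, lies within the locus on the same strand and was at 3.82 TPM or less.

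MOV10 is an RNA helicase that inhibits LINE-1 retrotransposition. MOV10 was at 69.3 and 69.5 TPM in HCT116 before knockdown and 78.4 and 75.5 TPM after it, and at 90.4 and 92.5 TPM in UF1hypo before and 119 and 96.0 TPM after. The 4 groups followed each other without overlap, yet the steps were small. The knockdown difference was 0.15 in HCT116 (95% interval -0.21 to 0.50) and 0.23 in UF1hypo (-0.12 to 0.58), with adjusted p-values of 1 and 0.382 in limma. In UF1hypo it was 0.07 without UF1hypo shUHRF1 replicate 1, 0.38 without replicate 2 and -0.02 after correction for GC content and transcript length.

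The Schlafen genes lie together on chromosome 17, and the pair in the list differed widely in level. SLFN5 represses transcription of incoming viral DNA in several systems. SLFN5, at chr17:35243071-35273655, was at 6.69 and 6.88 TPM in the HCT116 controls and at 4.78 and 4.11 TPM after knockdown. The UF1hypo controls had 11.3 and 11.7 TPM, and the knockdown libraries 21.7 and 29.1 TPM. Both libraries lay below the control after knockdown in HCT116 and above it in UF1hypo. Knockdown raised SLFN5 in UF1hypo by 1.06 (SE 0.209, limma adjusted p = 0.0125), whereas in HCT116 the difference was -0.52 (SE 0.209, unadjusted p = 0.0354, adjusted p = 0.692). The effects differed between the lines by 1.58 (95% interval 0.90 to 2.25, adjusted p = 0.0204). The call in UF1hypo ended without UF1hypo shScr replicate 1 (1.04, adjusted p = 0.112), UF1hypo shScr replicate 2 (1.08, 0.0862) or UF1hypo shUHRF1 replicate 2 (0.85, 0.00853), and it held at 1.26 without UF1hypo shUHRF1 replicate 1. It also ended with FPKM in place of TPM (0.93) and when the UF1hypo libraries were fitted alone (adjusted p = 0.0967). The call on the difference ended when any HCT116 or UF1hypo shScr library was left out (adjusted p up to 0.114), with the difference between 1.49 and 1.67, and held without UF1hypo shUHRF1 replicate 1 (1.78) or replicate 2 (1.37).

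SLFN11, at chr17:35350305-35373701, cleaves transfer RNA and blocks stalled replication forks, and is widely known as a marker of sensitivity to DNA-damaging drugs. It was listed at 0 in all 6 libraries outside UF1hypo shUHRF1, where it was at 0.186 and 0.0682 TPM. No library reached 1 TPM and SLFN11 was not tested. Among the other Schlafen genes on that stretch, SLFN12 reached 7.09 TPM and SLFN12L, SLFN13 and SLFN14 stayed at 0.481 TPM or less.

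SAMD9L and its neighbour SAMD9 are antiviral proteins that shut down translation and growth. SAMD9L, at chr7:93130056-93148385, was listed at 0 in all 4 HCT116 libraries, at 0.629 and 0.492 TPM in the UF1hypo controls and at 3.01 and 10.03 TPM after knockdown in that clone. Both knockdown libraries lay above both UF1hypo controls, and they lay far from each other, with a mean coverage of the transcript of 9.76 and 27.9 reads. SAMD9L exceeded 1 TPM, the level required for a test, only in the group where it was high, so its test is no independent support. The log2 difference in UF1hypo was 2.09 (SE 0.402, limma adjusted p = 0.0111, or 0.0256 when every gene above 0 TPM was tested), 2.82 without UF1hypo shUHRF1 replicate 1 and 1.36 without replicate 2. The call ended without UF1hypo shScr replicate 1 (adjusted p = 0.0593) or replicate 2 (0.0649), and when the UF1hypo libraries were fitted alone (0.0832). No fold is given for HCT116, where SAMD9L was listed at 0. The promoter of SAMD9L is shown for its lack of CG, the dinucleotide that UHRF1 keeps methylated. The window lies at chr7:93148336-93148635 on the minus strand.
SAMD9L: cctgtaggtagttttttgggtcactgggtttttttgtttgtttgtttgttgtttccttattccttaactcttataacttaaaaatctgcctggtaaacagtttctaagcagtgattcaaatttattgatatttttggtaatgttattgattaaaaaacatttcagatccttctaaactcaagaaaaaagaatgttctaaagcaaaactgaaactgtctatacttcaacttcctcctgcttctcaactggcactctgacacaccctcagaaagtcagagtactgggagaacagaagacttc
This window holds 0 CG dinucleotides, against a median of 14 over all windows of the table.

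Among the genes of nucleic acid clearance, SAMHD1 was higher in UF1hypo than in HCT116 and rose with knockdown in UF1hypo, and RNASEH2A did not pass the test in any comparison. SAMHD1 is a triphosphohydrolase that depletes deoxynucleotides and so starves reverse transcription. SAMHD1 was at 13.8 and 15.9 TPM in the HCT116 controls, with 16.5 and 17.2 TPM after knockdown. The UF1hypo controls held 34.9 and 36.8 TPM and the knockdown libraries 83.0 and 123 TPM. No 2 groups overlapped, and the step within HCT116 was the smallest. Knockdown raised SAMHD1 in UF1hypo by 1.47 (SE 0.21, limma adjusted p = 0.00284), and by 1.75 without UF1hypo shUHRF1 replicate 1 or 1.19 without replicate 2. In HCT116 the difference was 0.17 (95% interval -0.31 to 0.65, adjusted p = 1). The effects differed by 1.30 (95% interval 0.62 to 1.98, adjusted p = 0.0449), a call that ended under 5 of the alternatives (adjusted p up to 0.0961) and without any 1 of the HCT116 or UF1hypo shScr libraries (up to 0.194), and was 1.58 without UF1hypo shUHRF1 replicate 1. SAMHD1 was also 1.22 higher in UF1hypo shScr than in HCT116 shScr (SE 0.211, adjusted p = 0.0131), and leaving out any of those 4 libraries ended that call (adjusted p between 0.0834 and 0.16). The promoter of SAMHD1 is shown beside that of SAMD9L as a CG-rich one, at chr20:36951659-36951958 on the minus strand, with each CG in capitals.
SAMHD1: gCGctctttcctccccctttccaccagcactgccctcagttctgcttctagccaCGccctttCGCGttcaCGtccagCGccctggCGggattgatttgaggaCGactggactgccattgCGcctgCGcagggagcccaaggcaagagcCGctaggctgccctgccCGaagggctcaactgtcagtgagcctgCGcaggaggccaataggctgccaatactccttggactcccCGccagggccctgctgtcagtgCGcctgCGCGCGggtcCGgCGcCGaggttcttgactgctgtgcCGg
It holds 22 CG dinucleotides, more than 62.3% of all windows. The window of BST2 holds 2 and that of RNASEH2A 36. TREX1 had 3, ZC3HAV1 17, SLFN11 18, and the windows of ADAR and MOV10 between 12 and 14. SLFN5 had no window. DNA methylation was not analysed here, and a link between the CG content of these windows and the differences was not tested.

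TREX1 is the main exonuclease for cytosolic DNA, and its loss causes a type I interferonopathy. TREX1 stood at 0.307 and 1.03 TPM in HCT116 without knockdown, 0.546 and 3.25 TPM with it, 5.60 and 2.79 TPM in UF1hypo without knockdown and 9.19 and 3.30 TPM with it. Replicates lay far apart, and neither knockdown separated its groups. The log2 difference was 0.66 in HCT116 (95% interval -0.61 to 1.92) and 0.40 in UF1hypo (-0.88 to 1.69), and leaving out 1 library turned the sign of each, in UF1hypo to -0.22 without UF1hypo shUHRF1 replicate 1 against 1.03 without replicate 2. Both UF1hypo shScr libraries lay above both HCT116 shScr libraries, with a difference of 1.62 (SE 0.557, limma adjusted p = 0.16). It passed both thresholds when those 4 libraries were fitted alone (adjusted p = 0.0101), and its size ran from 1.12 with FPKM to 2.58 with a pseudocount of 0.1. TREX1 lies wholly within ATRIP on the same strand, over 1835 bases at chr3:48465811-48467645, and ATRIP was at 19.9 to 42.7 TPM, so the split of reads between the genes is uncertain.

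RNASEH2A is the catalytic subunit of RNase H2, which cuts RNA:DNA hybrids and removes single ribonucleotides from DNA. The controls held 128 and 112 TPM of RNASEH2A in HCT116 and 139 and 152 TPM in UF1hypo, and the knockdown libraries 141 and 148 TPM in HCT116 and 160 and 122 TPM in UF1hypo. Both knockdown libraries lay above both controls in HCT116, and both UF1hypo shScr libraries lay above both HCT116 shScr libraries. The UF1hypo groups overlapped. The knockdown difference was 0.28 in HCT116 (95% interval -0.11 to 0.66) and -0.06 in UF1hypo (-0.44 to 0.33), with limma adjusted p-values of 0.929 and 0.859. The value in UF1hypo was -0.25 without UF1hypo shUHRF1 replicate 1 and 0.14 without replicate 2. The gene overlaps HOOK2 on the opposite strand over its whole length, and HOOK2 was at 99.9 to 144 TPM. The strandedness of the libraries is not given in the sources used here, so reads of the 2 genes may not have been told apart.

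ADAR edits adenosine to inosine in double-stranded RNA, and its longer isoform is interferon-inducible. The tables hold 1 value per gene, so the isoforms could not be separated. Its level was 140 and 137 TPM in HCT116 with the control hairpin and 150 and 122 TPM with shUHRF1. In UF1hypo it was 220 and 230 TPM with the control hairpin and 296 and 303 TPM with shUHRF1. The HCT116 groups overlapped, and the UF1hypo groups were apart from them and from each other with a narrow spread. The difference between UF1hypo shScr and HCT116 shScr was 0.70 (SE 0.148, limma adjusted p = 0.0336), under the fold threshold. Knockdown gave 0.41 in UF1hypo (95% interval 0.08 to 0.74, adjusted p = 0.102, and 0.43 without UF1hypo shUHRF1 replicate 1) and -0.04 in HCT116 (-0.37 to 0.30, adjusted p = 1).

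Counted over the list, UHRF1 knockdown in HCT116 called none of the 8 genes above 1 TPM, and knockdown in UF1hypo called 3 of the same 8, all higher. In HCT116 limma called 0 of 8, and 0.0472% of all 12704 genes tested were called higher. An unadjusted p below 0.05 was found for 2 of 8 (BST2 and SLFN5, in opposite directions), beside 810 of 12704 over all genes. UHRF1 itself did not pass both thresholds in this fit (limma adjusted p = 0.0564), but passed them with the 4 HCT116 libraries alone (0.000104). The 0 of 8 therefore does not show that knockdown left these genes unchanged. With those 4 libraries alone, 0 of 8 were called as well. Both knockdown libraries lay above both controls for 4 of 8, against 20.1% of all genes. The median log2 difference of the 8 was 0.16, and -0.03 over all genes. In UF1hypo the 3 called genes were BST2, SAMHD1 and SLFN5, against 4.29% called higher of the 12543 genes tested in both lines. Both knockdown libraries lay above both controls for 6 of 8, all but TREX1 and RNASEH2A, against 26.6% of these genes and 30.6% of all genes tested in UF1hypo. The median difference was 0.64, and 0.00 over all genes tested in both lines. SAMD9L, which was tested in UF1hypo only and entered through its high group, is left out of these counts; with it 4 of 9 were called, against 7.39% of all 13620 genes tested in UF1hypo. Without UF1hypo shUHRF1 replicate 1 the median of the 8 was 0.72, and 0.09 over all genes tested in both lines. Without UF1hypo shUHRF1 replicate 2 the median of the 8 was 0.78, and -0.04 over all those genes. The call of SLFN5 did not hold with every library left out, and its difference then ran from 0.85 to 1.26. The share called over all genes also fell without either UF1hypo shScr library.

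The difference of the knockdown effects was called for 3 of the same 8 genes (BST2, SAMHD1 and SLFN5), against 2.57% called higher of 12704 genes above 1 TPM in HCT116 and 4.54% of all 13781. Its median over the 8 was 0.67, and 0.04 over those 12704 genes. Without UF1hypo shUHRF1 replicate 1 the median over the 8 was 0.75, and 0.13 over all those genes. Without UF1hypo shUHRF1 replicate 2 the median over the 8 was 0.59, and -0.01 over all those genes. Only the call of BST2 stood with every library left out. The differences then ran from 2.78 to 3.73 for BST2, 1.02 to 1.58 for SAMHD1 and 1.37 to 1.78 for SLFN5. The share called over all genes also fell without any 1 of the HCT116 or UF1hypo shScr libraries, so the loss of calls was not particular to these genes. For SAMD9L the difference was 2.09 (limma adjusted p = 0.0825), 2.82 without UF1hypo shUHRF1 replicate 1 and 1.36 without replicate 2. It passed both thresholds after correction for GC content and transcript length (2.21, adjusted p = 0.00263), its test open to the limit given above.

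UF1hypo shScr against HCT116 shScr called 2 of 8 genes, BST2 and SAMHD1, against 2.59% of 12856 genes called higher. All 8 had both UF1hypo shScr libraries above both HCT116 shScr libraries, against 29.1% of all genes, with a median of 0.69 and -0.05 over all genes. The call of BST2 held with each of the 4 libraries left out, and that of SAMHD1 ended each time. This comparison and the knockdown in UF1hypo share the UF1hypo shScr libraries, so their values stand side by side only. For BST2 they were 3.90 and 4.28, for SAMHD1 1.22 and 1.47, for ADAR 0.70 and 0.41, for ZC3HAV1 0.67 and 0.86, and for SLFN5 0.69 and 1.06. For TREX1 they were 1.62 and 0.40, for MOV10 0.39 and 0.23, and for RNASEH2A 0.28 and -0.06, the one gene with opposite signs. Without UF1hypo shUHRF1 replicate 1 the second value was -0.22 for TREX1.

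The other genes of these pathways were described from 3 lists with 41 genes in all. In the list of RNase H and DNA clearance, 10 of 11 genes were tested and limma called 0 in every comparison. At an unadjusted p below 0.05 the count was 2 of 10 in UF1hypo shScr against HCT116 shScr, beside 2341 of 12856 over all genes. These were DNASE1L1 (0.78) and LSM11 (-0.50), named after their values were seen. In the other comparisons the count was 0. BANF1, which coats cytosolic DNA, was at 211 to 319 TPM and PLD3, a lysosomal exonuclease, at 156 to 249 TPM over the 8 libraries. In the list of RNA editing and decay, 12 of 13 were tested and 0 were called. ADARB1, another adenosine deaminase and likewise named after its values were seen, had an unadjusted p below 0.05 for knockdown in UF1hypo (0.51, limma adjusted p = 0.154, and 0.32 without UF1hypo shUHRF1 replicate 1). The same held for the difference of the effects (0.69, adjusted p = 0.255, and 0.51 without that library). It was 1 of 12 each time, beside 3735 of 13620 and 2549 of 13781 over all genes. EXOSC10, a nuclease of the RNA exosome, was at 91.4 to 124 TPM and SKIC8, a subunit of the superkiller complex, at 66.7 to 95.02 TPM.

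Calls among the other genes all fell in the list of restriction partners and relatives, with 17 genes. Knockdown in HCT116 called 0 of 12 tested, against 0.0472% of all genes called higher. An unadjusted p below 0.05 was found for 0 of 12, beside 810 of 12704 over all genes. Knockdown in UF1hypo called 2 of the same 12 higher (HELZ2 and ZNFX1) and none lower, against 4.29% of the genes tested in both lines, with a list median of 0.61 against 0.00. SLFN12 was called as well, but exceeded 1 TPM only in the group where it was high and so is left out of that count. SLFN12, which degrades transfer RNA when bound to PDE3A, was at 0.132 TPM or less in the 6 libraries outside UF1hypo shUHRF1 and at 3.76 and 7.09 TPM within it. Its difference was 2.49 (SE 0.263, limma adjusted p = 0.00061, or 0.00127 when every gene above 0 TPM was tested), 2.88 without UF1hypo shUHRF1 replicate 1 and between 1.63 and 4.72 under the alternatives, so its size depends on how low values are treated. HELZ2, a helicase of the interferon response, was at 85.7 and 99.9 TPM in UF1hypo shScr and at 325 and 193 after knockdown. It rose by 1.43 (SE 0.257, adjusted p = 0.00832), or 1.05 without UF1hypo shUHRF1 replicate 1, a call that ended without UF1hypo shScr replicate 1 (1.32, adjusted p = 0.0748) or with the UF1hypo libraries alone (0.0576). ZNFX1, a sensor of double-stranded RNA, was at 43.0 and 46.1 TPM and at 98.7 and 103 after knockdown, a rise of 1.16 (SE 0.163, adjusted p = 0.00258), or 1.19 without UF1hypo shUHRF1 replicate 1. Without UF1hypo shUHRF1 replicate 1 the list median was 0.45, against 0.09 over the genes tested in both lines.

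TRIM25, the ubiquitin ligase that ZAP needs, was at 117 TPM in both UF1hypo shScr libraries and at 192 and 166 in UF1hypo shUHRF1. KHNYN, a nuclease partner of ZAP, was at 29.1 to 49.9 TPM over the 8 libraries. TRIM25 did not pass the fold threshold (0.60, limma adjusted p = 0.0351, and 0.49 without UF1hypo shUHRF1 replicate 1). The effect of knockdown differed between the lines for ZNFX1 (1.1, adjusted p = 0.0322, and 1.14 without UF1hypo shUHRF1 replicate 1), 1 of 12 genes called against 2.57% of 12704. SLFN12, with its test open to the same limit, had a difference of 2.43 (adjusted p = 0.00915), and 2.81 without that library. Leaving out any HCT116 or UF1hypo shScr library ended the call for ZNFX1 (adjusted p up to 0.177), as did 3 of the alternatives, and leaving out HCT116 shScr replicate 1 or either HCT116 shUHRF1 library ended that for SLFN12 (up to 0.0732).

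UF1hypo shScr against HCT116 shScr called 3 of the 12 higher (SAMD9, HELZ2 and TRIM5), against 2.59% of 12856 genes, with a list median of 0.20 and -0.05 over all genes. SAMD9, which shares its locus on chromosome 7 with SAMD9L, was at 3.90 to 4.09 TPM in the 4 HCT116 libraries, at 38.6 and 29.8 TPM in the UF1hypo controls and at 45.2 and 138 TPM after knockdown. It was 2.81 higher in UF1hypo shScr than in HCT116 shScr (SE 0.424, limma adjusted p = 0.00689). The knockdown difference in UF1hypo was 1.2 (limma adjusted p = 0.11), 1.99 without UF1hypo shUHRF1 replicate 1 and 0.40 without replicate 2. It passed both thresholds after correction for GC content and transcript length (1.39, adjusted p = 0.00107). HELZ2 was 1.53 higher (adjusted p = 0.0112), and TRIM5, which recognises retroviral capsids, 1.02 higher (adjusted p = 0.036). Leaving out any of the 4 libraries ended the calls of HELZ2 (adjusted p up to 0.114) and TRIM5 (up to 0.255). That of SAMD9 ended without HCT116 shScr replicate 1, HCT116 shScr replicate 2 or UF1hypo shScr replicate 1 (up to 0.0691).

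**Figure D1:**
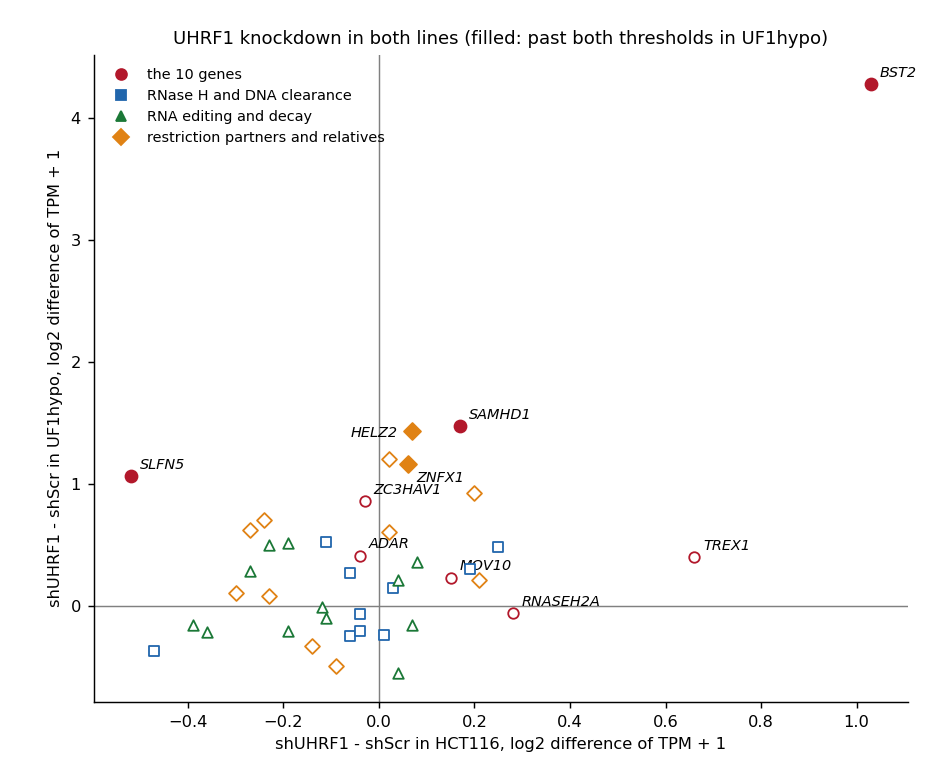
Knockdown effect in HCT116 (horizontal) and in UF1hypo (vertical), as log2 differences of TPM + 1, for the 42 genes of the list and its 3 companion lists tested in both lines. Filled points passed both thresholds in UF1hypo; BST2 lies at 1.03 and 4.28, SLFN5 is the filled point to the left of 0, at -0.52 and 1.06, and SAMD9L and SLFN12 are absent because they were not tested in HCT116.

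Genes whose levels ran most like those of the 10 were sought among protein-coding genes by Pearson's r of log2(TPM + 1) over the 8 libraries. The 8 points are 4 groups of 2 and share their libraries and depth. For BST2 the closest were STAT2 (r = 0.995), APOBEC3F (0.994) and B3GNT7 (0.994). STAT2, a subunit of the interferon-activated factor ISGF3, was at 24.9 and 25.1 TPM in HCT116 shScr and at 128 and 118 in UF1hypo shUHRF1, and APOBEC3F, a cytidine deaminase that mutates retroviral DNA, at 5.53 and 4.47 and at 25.3 and 29.8. For SAMHD1 they were IFIT2 (0.997), PRR15 (0.996) and LAMP3 (0.995), and for ADAR RRBP1 (0.994), PARP12 (0.993) and SH3RF2 (0.992). IFIT2, an RNA-binding product of the interferon response, was at 0.299 and 0.526 TPM in HCT116 shScr and at 34.4 and 56.2 in UF1hypo shUHRF1.

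EXT1 (0.993) and BTN3A1 (0.992) were among the closest genes for ZC3HAV1, and for MOV10 the closest were LRRN2 (0.992), NFKBID (0.991) and DOK4 (0.991). SLFN5 was followed by F3 (0.995), FAM104A (0.994) and S100A11 (0.989). F3, the tissue factor that starts coagulation, was, as SLFN5 was, lower in both HCT116 knockdown libraries (26.6 and 28.4 TPM) than in their controls (45.9 and 44.1 TPM) and higher in both UF1hypo knockdown libraries (318 and 427 TPM) than in theirs (109 and 102 TPM). SAMD9L was followed by DCLK1 (0.989), CLN8 (0.987) and IFI44L (0.987), of which DCLK1 and IFI44L were likewise listed at 0 in all 4 HCT116 libraries. The values for TREX1 (BAD at 0.949, H2BC15 at 0.941 and NUDT14 at 0.935) and RNASEH2A (DCAKD at 0.973, SNRNP25 at 0.972 and EMC9 at 0.958) were lower. Between the 9 genes above 1 TPM themselves, r among BST2, SAMHD1, ADAR, ZC3HAV1, SLFN5 and SAMD9L ran from 0.863 to 0.984. With these, r ran from 0.723 to 0.931 for MOV10 and from 0.553 to 0.773 for TREX1. That of RNASEH2A with all the others ran from -0.020 to 0.578. These values come with no test.

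The replicates of UF1hypo shUHRF1 differed in these genes along GC content. SAMD9L (38.5% GC in the canonical transcript), SLFN5 (39.1%), ZC3HAV1 (44.3%) and SAMHD1 (46%) were lower in replicate 1, with ratios of replicate 1 to replicate 2 of 0.3, 0.745, 0.808 and 0.675. ADAR, at 50% GC, had a ratio of 0.976. BST2 and MOV10 (both 57.3%), RNASEH2A (57.5%) and TREX1 (62.4%) were higher in replicate 1, with ratios of 1.08, 1.24, 1.32 and 2.78. The knockdown difference, with its sign, was thus higher with replicate 2 alone for the GC-poor genes and with replicate 1 alone for the GC-rich ones. For BST2 the values with replicate 2 alone and replicate 1 alone were close (4.23 and 4.34). For RNASEH2A they differed in sign (-0.25 and 0.14). After correction for GC content and length, BST2, SAMHD1, SLFN5 and SAMD9L were still called for knockdown in UF1hypo, with BST2 at 4.14 and SAMHD1 at 1.51. The share called over all genes after that correction is not given here.

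**Figure D2:**
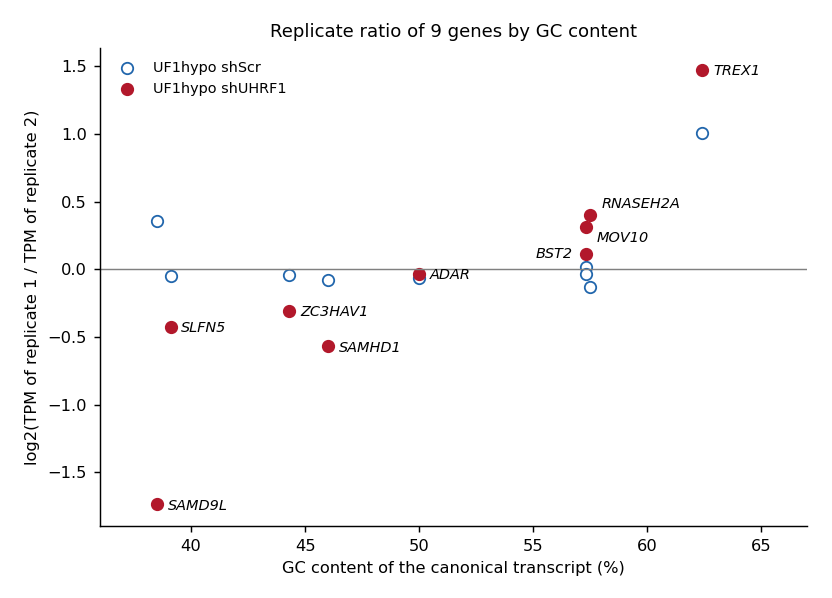
Ratio of TPM in replicate 1 to replicate 2, on a log2 axis, against the GC content of the canonical transcript for the 9 genes above 1 TPM in at least 1 library, with UF1hypo shUHRF1 filled and UF1hypo shScr open. The filled points run from SAMD9L (ratio 0.3) at the lowest GC content to TREX1 (2.78) at the highest; the open points of 7 genes lie close to 0, and those of SAMD9L (1.28) and TREX1 (2.01) above it.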

How the data were processed

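RNA-seq of 8 libraries was analysed from the gene tables deposited by the authors, 1 per library. Per the study's methods and the labels, reads were trimmed with Fastp, aligned to GRCh38 with HISAT2 2.0.4 and assembled with StringTie 2.1.4. The authors deposited, per gene, TPM (transcript abundance scaled for length and to a fixed total), FPKM (fragments scaled per kilobase and for library size) and coverage (mean reads per base). The tables hold no counts, so the count test of the study's methods could not be applied and depth was estimated as gigabases from the ratio of coverage to FPKM. Strandedness is not given in the sources used here.

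Differences were tested with limma 3.58.1 (R 4.3.3) on log2(TPM + 1), with 1 coefficient per group over all 8 libraries, a variance trend and Benjamini-Hochberg adjustment over the protein-coding genes above 1 TPM in at least 1 library of the comparison. A gene was called at an adjusted p below 0.05 and a log2 difference above 1 in size. Records sharing a gene identifier were summed. Simulated libraries with known changes were used to test the fit. The alternatives were a pseudocount of 0.1, no filter, a filter on mean TPM, FPKM, median-ratio scaling, quantile normalization, no variance trend, the largest record of each identifier, the libraries of a comparison alone, a replicate block, a correction for GC content and length in 10 bins of each, and leaving out each library. Counts over the lists that involve knockdown in UF1hypo were limited to genes also above 1 TPM in HCT116, a choice made after seeing the data.

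The 10 genes, the companion lists and the tests were chosen with earlier results of these data known. Besides UHRF1 and the 10 genes, the text names companion genes called in any comparison, the 2 uncalled genes of each list with the highest mean TPM, and the 3 protein-coding genes most alike each gene above 1 TPM; other names are marked where they appear. A gene that this rule names is not reported here. GC content, length and overlaps came from GENCODE v44, whose identifiers matched 60463 of 60649, and SKIC2, SKIC3 and SKIC8 appear in the tables under their older symbols. Promoter windows came from the RefSeq table of GRCh38.p14, where 9 of the 10 genes had 13 windows. Intervals cover the spread between libraries only.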

Additional observations from a re-analysis of the deposited data

Results flagged for a closer look

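For 5 of the named genes, limma found unlike effects of the UHRF1 hairpin in the 2 lines when the effects themselves were compared across 8 libraries, out of 9 of the 10 genes and 35 companion genes tested, against 4.54% of 13781 genes called higher. SLFN12 exceeded 1 TPM only in UF1hypo shUHRF1, so its place in that count is no independent support. BST2 differed by 3.26 on the log2 scale (adjusted p = 0.00357), with both libraries above their controls in each line. SAMHD1 differed by 1.30 (adjusted p = 0.0449), again with both libraries above their controls in each line. SLFN5 differed by 1.58 (adjusted p = 0.0204) and lay above its controls in 2 of 2 libraries in UF1hypo and below them in 2 of 2 in HCT116. Of the companion lists, ZNFX1 differed by 1.1 (adjusted p = 0.0322) and SLFN12 by 2.43 (adjusted p = 0.00915). No search for outlying libraries was made, since each group holds 2.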

How the results depend on the processing

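The labels do not say whether libraries with the same replicate number were handled together. The differences of replicate 1 and 2 correlated at -0.402 to 0.055 between groups across genes, which cannot settle it. The lowest value was that of UF1hypo shScr with UF1hypo shUHRF1. With a replicate block, the difference of the effects called 1 companion gene in place of 2, and the calls of SAMHD1 (1.30, adjusted p = 0.0574) and ZNFX1 (1.1, 0.0712) on that difference and of TRIM5 (1.02, 0.0734) between the lines were lost, with no other call changed. With the UF1hypo libraries alone, knockdown called 2 of the 10 genes in place of 4. After the GC content and length correction it called 5 companion genes in place of 3, and after quantile normalization the difference called 1. The share called over all genes is not given here for these settings or for the replicate block, so the counts describe single calls only. With only genes above 1 TPM in HCT116, chosen after seeing the data, knockdown in UF1hypo called 3 of the 10 genes and 2 companion genes, and the difference 3 and 1. Of all such genes, 4.29% and 2.57% were called higher.

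Leaving out 1 library at a time, with SAMD9L and SLFN12 counted, knockdown in UF1hypo called 2 to 5 of the 10 genes and 2 to 6 companion genes, the difference of the effects 1 to 5 and 0 to 6, and UF1hypo shScr against HCT116 shScr 1 of the 10 genes in all 4 cases and 0 to 1 companion genes. Signs turned only for differences that were not called. In HCT116, ADAR (-0.04) was 0.01 with median-ratio scaling, 0.03 with the GC correction and -0.19 to 0.11 over left-out libraries, and ZC3HAV1 (-0.03) was 0.02, 0.03 with quantile normalization, 0.06 with the GC correction and -0.22 to 0.17. MOV10 was -0.02 in UF1hypo with the GC correction, and its difference of effects was -0.08 with quantile normalization, -0.18 with the GC correction and -0.08 to 0.23. With libraries left out, TREX1 ran from -0.07 to 1.38 in HCT116, -0.22 to 1.03 in UF1hypo and -0.98 to 0.48 in their difference, RNASEH2A from -0.25 to 0.14 in UF1hypo, and HELZ2 from -0.15 to 0.29 and ZNFX1 from -0.08 to 0.20 in HCT116. The cause was not tested. Quantile normalization moved the median of all genes from 0.08 to -0.06 for the difference of the effects and from 0.04 to -0.07 for knockdown in UF1hypo, and the other scalings moved it less. Levels below 1 TPM limit what can be said of SLFN11 in all libraries and of SAMD9L outside UF1hypo shUHRF1.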
